A study of Mus musculus with 6 samples.

Results

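The RNA bound by BAZ2A in mouse embryonic stem cells (ESCs) was mapped by iCLIP, a method that fixes protein to RNA with UV light, precipitates the protein and sequences cDNA made from the attached RNA. The deposited list held 3127 peaks, and 214 of the 3124 peaks that could be placed in their gene lay in the 5′ untranslated region (5′UTR) of an mRNA (6.85%, Wilson 95% interval 6.02-7.79). A peak was taken as a 5′UTR peak when its midpoint fell in a 5′UTR, and in no coding sequence (CDS) or 3′UTR, of any GENCODE M21 transcript of the gene named in the list. These 214 peaks held 212 distinct intervals and lay in 203 genes, all protein-coding, on 20 chromosomes, and 110 were on the plus strand and 104 on the other.

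The study used E14 ESCs in N2B27 medium with LIF/2i, in which endogenous BAZ2A carried Flag and HA tags, and the protein was precipitated from nuclei with an anti-FLAG antibody. Both groups shared the cell line, the tags, the medium and the antibody: 3 crosslinked libraries came from cells exposed to UV-C light and 3 background libraries from cells without it. Before sequencing, every crosslinked library was combined with the background library of its experiment. The peak list joins all 6 libraries and gives no value for any one of them, so depth and replicate error are unknown, no test between samples was possible, and every interval below covers the counting or ordering of peaks only.

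BAZ2A is the large subunit of the nucleolar remodeling complex, known for silencing ribosomal RNA genes, and its TAM domain binds RNA. Per the study, this nucleolar function is abrogated in ESCs, where BAZ2A was not found within nucleoli and associates with active chromatin. The 5′UTR is the stretch of an mRNA between the cap and the start codon, along which the small ribosomal subunit scans during translation initiation. Control elements in it include upstream AUG codons, stable stems, iron-responsive elements, and the pyrimidine tract at the cap of TOP mRNAs (terminal oligopyrimidine mRNAs, which encode ribosomal proteins and other parts of the translation machinery). In nuclear RNA the same sequence is also the first part of the gene to be transcribed.

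The sequences below are from 8 of the highest-scored 5′UTR peaks, as 29 nt around the mode. The mode is the single-nucleotide position that the list gives inside each peak, and its base is in capitals. All sequences read as the RNA does, in DNA letters, from the GRCm38 genome.
Pabpc1: ccagcgcccccagcTaccccatggcctct
Pdgfa: cgccaccctcctccGggccgcgctccctg
Rps20: agcctgctccgtccTgactcaccgctgtt
Cd81: gctccaggctatctGccagtcccggaccc
Slc6a8: ccctctctccaggtGccaccggagccccc
Ftl1: cctcgctgccttcaGctcctaggaccagt
Scd2: aacgtgaccccagcAtccgacgccaagat
Tpt1: ctccccccgcgcgcCgctccggctgcacc
The windows are rich in C around modes of different bases, and the Pabpc1 mode already lay in the CDS, downstream of the start codon.

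The annotation behind the label was checked against RefSeq. RefSeq placed 195 of the 214 midpoints in a 5′UTR only, 10 in an intron, 7 in no transcript, and 2 both in a 5′UTR and in a CDS or 3′UTR. The 5′UTR used was that of a principal transcript (APPRIS) for 187 of the 214. In the single transcript ranked first for each gene, 174 midpoints lay in the 5′UTR, 21 upstream of the transcript and 19 in an intron. A further gene on either strand lay at 34 midpoints, 24 of them with an antisense gene. The whole peak lay in 5′UTR exons for 134 of the 214. As a check of the cell type, 8 of 10 ESC markers had a peak of some class in the list, beside 9.69% of protein-coding genes. Among them were 5′UTR peaks in Klf4 and Pou5f1, though RefSeq placed the Pou5f1 midpoint in an intron. Lin28a and Tdgf1 had no peak of any class. The study reported for this iCLIP that read density rose with transcript level, and that genes with sites were more highly expressed than genes without. The list holds no transcript levels, so a missing peak says nothing about expression, and the part of transcript abundance in any count below was not tested.

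Peaks in 5′UTRs had a higher median score, length and GC content than peaks in CDS, 3′UTRs or introns. The score is the peak caller's own value, its scale is not stated, and it was compared only within the list. The median score of the 214 peaks was 5.49 (95% interval 4.85-6.44, range 0.636-78.6). It was 4.64 (4.41-4.82) over 720 CDS peaks, 4.60 (4.31-5.01) over 497 3′UTR peaks and 3.81 (3.70-3.94) over 1539 intronic peaks. The interval of the 5′UTR peaks lay above those of the CDS and intronic peaks and overlapped that of the 3′UTR peaks. The 154 peaks in non-coding exons had the same median, 5.49 (4.46-6.20).

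Of the 5′UTR peaks, 35 (16.4%, 12-21.9) were among the 10% of the list with the highest score, beside 10.0% of all peaks by construction. The 50% of the list with the highest score, 50.0% of all peaks, held 142 of them (66.4%, 59.8-72.3). The corresponding shares were 7.78% and 55.7% of CDS peaks and 27.9% and 62.3% of peaks in non-coding exons. The highest scores of the list lay in other classes and reached 1000 in introns.

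The median length of the 5′UTR peaks was 79.0 nt (73.0-89.0, range 4-452). It was 63.0 nt in the CDS, 64.0 nt in 3′UTRs and 52.0 nt in introns. More than 100 nt were covered by 67 of the 214 peaks (31.3%) and by 19.9% of CDS peaks. Score and length were related within the 5′UTR peaks (Spearman's rho = 0.72 across 214 peaks, which share 6 libraries), and the caller sets both values. For score and GC content rho was 0.00, and for score and the length of the 5′UTR it was 0.06.

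The median GC content of the 5′UTR peaks was 69.9% (68.4-71.5), with quartiles of 63.6% and 75.8%. It was 58.8% in CDS peaks, 53.3% in intronic peaks and 50.9% in 3′UTR peaks. Annotated 5′UTRs are themselves rich in GC, with a mean of 59.9% over 20076 genes, so the comparison within the same transcripts below is the closer one.

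**Figure D1:**
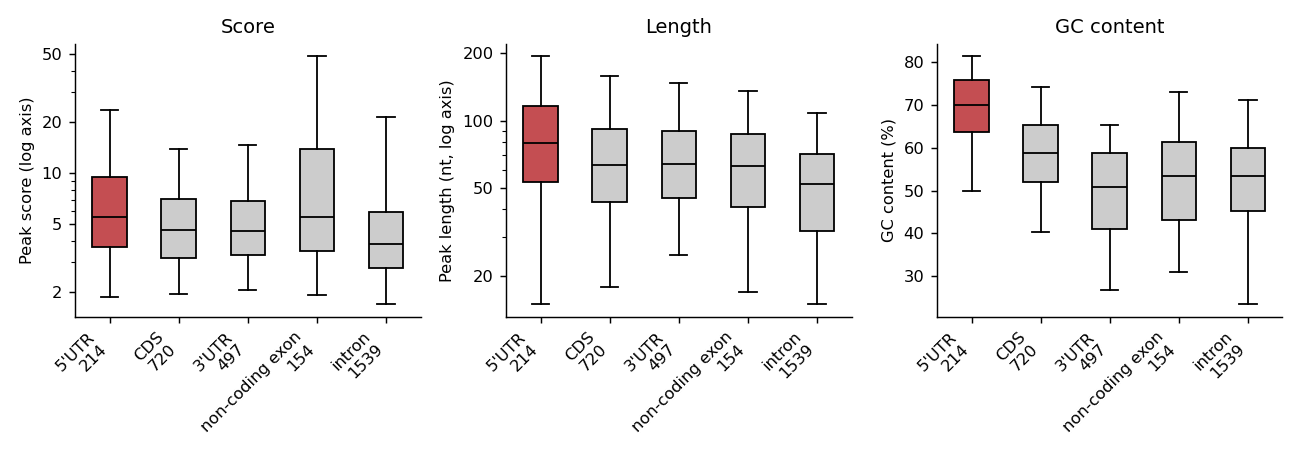
Score (log axis), length in nt (log axis) and GC content in percent of the peaks of each class, with the number of peaks under each name. Boxes show the median and quartiles and whiskers the 5th and 95th percentiles; the 5′UTR box (red, 214 peaks) has a median score of 5.49, a median length of 79.0 nt and a median GC content of 69.9%.

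Within the 5′UTR, peaks lay toward the start codon. The host 5′UTRs had a median of 310 nt (280-350) along the spliced transcript against 180 nt over all genes. A longer 5′UTR is more readily hit by a midpoint. The host transcript was also chosen to hold the midpoint and was counted per peak, while all genes had their first-ranked transcript. The part of these rules in the difference was not tested. The median midpoint lay 178 nt (155-212) from the transcript start and 97.0 nt (66-116) from the start codon. On a scale from 0 at the transcript start to 1 at the start codon, the median position was 0.70 (0.63-0.73). With each 5′UTR cut into 3 equal parts, 44 of the 214 midpoints were in the part next to the transcript start, 55 in the middle part and 115 in the part next to the start codon (53.7%, 47.1-60.3).

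The peaks near the start codon were not spread evenly over its last 100 nt. The shares of bases by distance, here and in the closing section, are means over the peaks, each taken in its own 5′UTR. Between 26 and 50 nt upstream lay 47 midpoints (22.0%, 16.9-28.0), while this interval held 9.60% of the bases. The 1-25 nt next to the start codon held 29 midpoints (13.6%, 9.60-18.8) and 9.74% of the bases. Between 51 and 100 nt the order turned, with 32 midpoints (15%, 10.8-20.3) against 18.2% of the bases. Over the whole 100 nt before the start codon, 108 midpoints (50.5%, 43.8-57.1) stood against 37.5% of the bases. The first 100 nt after the transcript start also held 37.5% of the bases but 52 midpoints (24.3%, 19.0-30.5). The midpoint rule does not treat both ends alike. A peak inside the transcript cannot have its midpoint at the first bases, while near the start codon it can run on into the CDS. Only 8 peaks began before the annotated start, while 59 covered the start codon. The part of this rule in the difference between the ends was not tested. The excess over the bases before the start codon depended on the transcript chosen. With the transcript of the shortest 5′UTR, 51.9% of the midpoints stood against 46.4% of the bases, and the median position was 0.59. Among the 134 peaks wholly inside 5′UTR exons the shares were 29.9% and 33.1% and the median position 0.55, but that rule removes peaks over the start codon by construction.

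Coverage by whole peaks describes the same peaks in another way and is no added evidence. The count of 5′UTR peaks over a position was highest 32-35 nt upstream of the start codon, where 100 peaks lay. It was 61 at 100 nt upstream, where 199 transcripts of the set still had a 5′UTR, and 14 at 300 nt upstream, where 103 did. At the start codon it was 59, beside 42 peaks of the CDS class, and 50 nt into the CDS it was 9. Peaks of the CDS class were most frequent 40-50 nt downstream of the start codon, with 70 or 71. By rule the midpoints of 5′UTR peaks lie before the start codon and those of CDS peaks in a CDS. The fall of each count across the start codon therefore follows from the class rule.

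**Figure D2:**
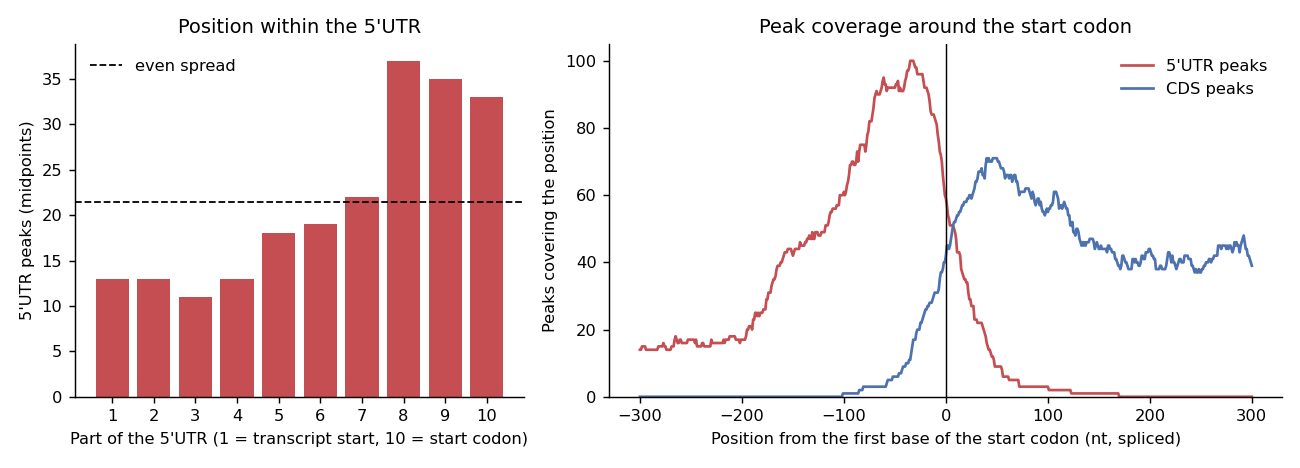
Left, number of 5′UTR peak midpoints in each of 10 equal parts of the 5′UTR, from the transcript start (1) to the start codon (10), with a dashed line at an even spread. Right, number of 5′UTR peaks (red) and CDS peaks (blue) that cover each position of the spliced transcript, in nt from the first base of the start codon. The red line is highest at 100 peaks, 32-35 nt upstream, and the class rule sets the fall of both lines across the start codon.

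The start codon itself was covered by 59 of the 214 peaks (27.6%, 22.0-33.9). These peaks ran a median of 23.0 nt (range 1-170) into the CDS. Their median score was 7.77 (6.82-11.5) and their median length 112 nt (93.0-130). The 155 other peaks had a median score of 4.81 (4.26-5.50) and a median length of 69.0 nt (62-77.0). A longer peak covers any fixed position more readily, and score rose with length (Spearman's rho = 0.72). The part of peak length in these differences was not tested. Among the 59 peaks, the 5 of highest score were those of Pabpc1, Pdgfa, Cd81, Slc6a8 and Ftl1. The start codon of the transcript ranked first for the gene was covered by 58 peaks of the 5′UTR class and by 42 of the CDS class.

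The start codons with the 5′UTR peak midpoints nearest to them, at 2-8 nt, belonged to glutamate dehydrogenase (Glud1), a subunit of the mitochondrial ATP synthase (Atp5g3), a component of the SMN assembly machinery (Strap), metallothionein 2 (Mt2) and a ribosomal protein (Rpl10). They are shown with 18 nt before the start codon, which is in capitals.
Glud1: cagcccgccgccgccgccATGtaccgccgt
Atp5g3: gcgccgccaggaagaaagATGttcgcctgc
Strap: accgcgctcgccgccgccATGgccatgagg
Mt2: ccgccgcctccactcgccATGgaccccaac
Rpl10: gacgatcctattgtcatcATGggccgccgc
The peaks on these codons had scores of 12.1 in Glud1, 15.9 in Atp5g3, 7.26 in Strap, 18.6 in Mt2 and 10.5 in Rpl10. The sequences before the codons were not alike: those of Glud1 and Strap repeat GCC, and that of Rpl10 holds all 4 bases without a repeat.

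Scores and lengths also changed along the 5′UTR. Median scores were 4.21 (3.14-4.92) in the part next to the transcript start, 6.30 (4.34-7.44) in the middle part and 6.35 (4.95-7.20) in the part next to the start codon. In the same order, median lengths were 59.0 nt, 77.0 nt and 90.0 nt. Across the 214 peaks, score and relative position had a Spearman's rho of 0.30.

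Few peaks lay at the cap. Exactly 5 began at the first annotated base of the transcript used, those of Rack1 (23.7), Dnaja2 (3.77), a chaperone of the DnaJ family, Pa2g4 (3.53), Samd4b (2.81) and Car8 (0.98). Of these only the Rack1 peak had a score above the median of the 5′UTR peaks. A further 5 that reached farthest upstream extended beyond the annotated start of the transcript used: Eif4g1 by 109 nt, Hnrnpa2b1 and Tnrc6c by 31 nt each, Pdgfa by 19 nt and Mapk14 by 15 nt. In all, 8 peaks did so, and whether the cells used another transcript start there was not tested. The peak of Eif4g1, which encodes the scaffold of the cap-binding complex, had a score of 12.4 and a length of 250 nt, and RefSeq placed its midpoint in an intron. That of Hnrnpa2b1, an hnRNP protein, had a score of 13.8.

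Most peaks were in the first exon (192 of 214, 89.7%), and 138 lay in transcripts with an unspliced 5′UTR. An exon end was crossed by 27 peaks (12.6%, 8.82-17.7), of which 18 ran into the intron downstream and 9 into the intron upstream. The list gives genomic intervals, so unspliced RNA and reads placed at the exon end cannot be told apart. The 5 of highest score were in Aldoa (22.4), the glycolytic enzyme aldolase A, Rplp2 (18.8), a protein of the ribosomal stalk, Mt2 (18.6), Pcbp2 (15.6), a poly(C)-binding protein, and Rps16 (13.8), a ribosomal protein. All 5 ran from the first exon into the first intron.

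The highest 5′UTR score belonged to Pabpc1 (ENSMUSG00000022283), the cytoplasmic poly(A)-binding protein, which is known to bind an A-rich stretch of its own 5′UTR. Its peak, at chr15:36608337-36608788 on the minus strand, had a score of 78.6, ranked 23 in the list, and was with 452 nt the longest of the 214. It covered 282 of the 467 nt of the 5′UTR (60.4%) and 170 nt of the CDS. The 30 nt of the 5′UTR with the most A, 22 of 30, lay 105-134 nt from the transcript start, and the peak began 51 nt downstream of them.
Pabpc1 A-rich stretch: gaaaaaacccaaaaaaaatttacaaaaaaa
The A-rich stretch therefore lay outside the peak.

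The next scores were those of B4galt6 (47.3), a galactosyltransferase of lactosylceramide synthesis, and Pdgfa (34.2), a growth factor chain. The B4galt6 peak spanned 312 nt and ended before the start codon. The Pdgfa peak, at chr5:138994710-138995056, spanned 347 nt and ran from before the annotated start to 62 nt inside the CDS, over the whole 5′UTR of 266 nt. RefSeq also placed its midpoint in a 5′UTR, and the transcript used is a principal one. In the GENCODE transcript ranked first for the gene, the midpoint was intronic.

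The 15 highest-scored peaks included those of several housekeeping genes. Rps20 (32.0), Rplp2 (18.8) and Rack1 (23.7) encode proteins of the ribosome, and Tpt1 (26.7) a translationally controlled tumor protein. Pfn1 (25) encodes the actin-binding profilin and Aldoa (22.4) a glycolytic enzyme. Cd81 (30.2) encodes a tetraspanin, Slc6a8 (29.9) the creatine transporter, Scd2 (27.8) a stearoyl-CoA desaturase and Fn1 (26.3) fibronectin. Ftl1 (28.8) and Fth1 (18.9) encode the ferritin light and heavy chains. Of these 15 peaks, 11 covered the start codon, which longer peaks do more readily.

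**Figure D3:**
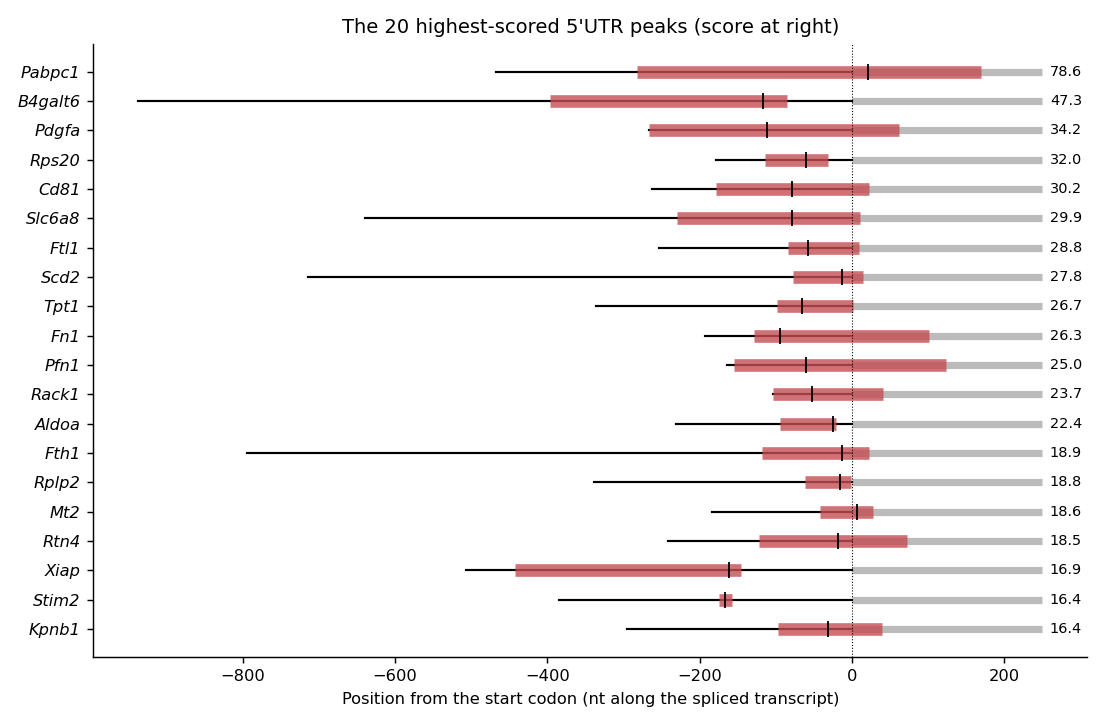
The 20 highest-scored 5′UTR peaks, drawn in nt along the spliced transcript with the start codon at 0; the black line is the 5′UTR, the grey bar the first part of the CDS, the red bar the peak within the transcript, the black tick the mode and the number at the right the score. Most of the red bars reach the start codon, and those of B4galt6, Xiap and Stim2 end farthest before it.

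Both ferritin mRNAs had a 5′UTR peak, and in both the loop of the iron-responsive element lay upstream of it. The Ftl1 peak began beyond the element, while the Fth1 peak held part of its 3′ arm. This element is a stem with a CAGUGN loop to which the iron regulatory proteins bind, and it blocks ribosome recruitment when iron is low. It is shown here for both genes in 30 nt, with the loop in capitals.
Ftl1 iron-responsive element: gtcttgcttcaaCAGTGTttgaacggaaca
Fth1 iron-responsive element: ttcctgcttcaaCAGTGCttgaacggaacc
In Ftl1 the 12 nt from a C through 5 free bases to the end of the loop CAGTGN ended 95 nt from the transcript start, and the peak began 74 nt downstream of them. In Fth1, in a transcript with a 5′UTR of 795 nt in 2 exons, the match ended 2 nt upstream of the peak, and 10 of the 30 nt printed were inside the peak. Both peaks covered the start codon. The same 12-nt pattern, searched on the RNA strand only, occurred in the 5′UTR of 24 of 203 host genes (11.8%, 8.07-17.0) and in 8.85% of all 20076 genes, so a match alone says little. Ftl1 and Fth1 were the 2 of 6 genes listed for iron-responsive 5′UTR elements with a 5′UTR peak (33.3%), beside 0.925% of protein-coding genes. A peak of any class lay in 3 of the 6 (50.0%), beside 9.69%.

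Ribosomal protein mRNAs were represented by 9 of 84 genes (10.7%), against 203 of 21951 protein-coding genes with a 5′UTR peak (0.925%). A peak of any class lay in 37 of the 84 (44.0%) and in 9.69% of protein-coding genes. Their scores ran from 32.0 in Rps20 over 18.8 in Rplp2, 13.8 in Rps16, 10.5 in Rpl10 and 7.20 in Rps19 to 3.44 in Rps24. Rps7 and Rpl13 had 4.42 each and Rpl28 had 3.68. The list takes symbols of Rpl, Rps or Rplp with a number and so leaves out Rpsa, a protein of the small subunit, whose 5′UTR peak had a score of 6.65. The Rps20 peak (ENSMUSG00000028234), at chr4:3835518-3835600, ended before the start codon. With only peaks wholly inside 5′UTR exons the count was 5. Ribosomal protein and ferritin genes have many processed pseudogenes, and how reads that match several copies were treated is not given in the sources used here.

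Other known TOP mRNAs were a list added after values were seen. A peak of any class lay in 11 of its 21 genes (52.4%), beside 9.69% of protein-coding genes. A 5′UTR peak lay in 6 of the 21 (28.6%), beside 0.925%. Beside Pabpc1, Tpt1 and Rack1 these were Npm1 (13.5), a nucleolar histone chaperone, Eef1a1 (11.3), the elongation factor that delivers aminoacyl-tRNA, and Vim (3.71), vimentin. The Rack1 peak began at the annotated start, where the pyrimidine tract lies. The others did not: the midpoints lay 287 nt from the transcript start in Tpt1, 200 nt in Npm1, 100 nt in Eef1a1 and 384 nt in Vim. A C followed by 4 pyrimidines at the annotated start was found in 5 of the 203 host genes (2.46%, 1.06-5.64), namely Pabpc1, Rack1, Rtn4, Tubb5 and Rps24. The share over all genes was 2.36%, and annotated starts can be off by a few bases.

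Translation initiation factors had a peak of any class in 19 of 55 genes (34.5%), beside 9.69% of protein-coding genes. They had 5′UTR peaks in 5 of the 55 (9.09%), beside 0.925%. The scores of these 5′UTR peaks were 12.4 in Eif4g1, 12.1 in Eif5, 7.46 in Eif1, 4.98 in Eif1ax and 0.636 in Eif1ad. Eif5 and Eif1 act with the scanning ribosome in the choice of the start codon. The Eif5 peak was 15 nt long and RefSeq placed it in an intron, and the Eif1ad peak of 5 nt lay in no RefSeq transcript. Only the peaks of Eif1 and Eif1ax among the 5 lay both in a RefSeq 5′UTR and in the last 100 nt before the start codon.

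Factors of pluripotency and the ground state had 5′UTR peaks in 3 of 24 genes (12.5%) and peaks of any class in 16 (66.7%). The shares over all protein-coding genes were 0.925% and 9.69%. The scores of the 5′UTR peaks were 4.04 in Klf4, 3.48 in Tcf7l1 and 3.47 in Pou5f1, all below the median of the 5′UTR peaks. Klf4 and Pou5f1 encode transcription factors of the pluripotency network, and Tcf7l1 its repressor downstream of Wnt. The Klf4 peak covered the start codon, whereas RefSeq placed the Pou5f1 midpoint in an intron and that of Tcf7l1 in no transcript. Basement membrane and matrix genes had a peak of any class in 11 of 17 (64.7%). A 5′UTR peak lay in 2 of the 17 (11.8%), Fn1 and Lamc1 (10.3), a laminin chain.

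Genes listed for other control elements in the 5′UTR gave 2 small counts, beside 0.925% of all protein-coding genes with a 5′UTR peak and 9.69% with any. Of 16 in a list of upstream open reading frames and related elements, 6 had a peak of any class (37.5%) and 2 a 5′UTR peak (12.5%), Azin1 (6.15), an antizyme inhibitor, and Mdm2 (3.51), the ubiquitin ligase of p53. The Mdm2 peak crossed into the intron before its exon. Of 12 genes with long structured 5′UTRs, 4 had a peak of any class (33.3%), and 1 of them, Xiap (16.9), an inhibitor of apoptosis, a 5′UTR peak (8.33%). Its peak, at chrX:42068462-42068759, was 298 nt long and lay 295 nt from the start codon at its midpoint.

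Among chromatin genes, enzymes of histone and DNA methylation had 5′UTR peaks in 2 of 58 (3.45%: Kdm5b with 7.17, Kmt2d with 4.60) and peaks of any class in 29.3%. Chromatin remodelers had 5′UTR peaks in 2 of 57 (3.51%: Brd2 with 5.49, Chd9 with 5.20) and peaks of any class in 28.1%. The shares over all protein-coding genes were 0.925% and 9.69%. None was found in 29 Polycomb genes, 9 of which had a peak of another class, nor in 11 genes of BAZ2A and its partners, 4 of which had one; both lists are small for a share of 0.925%. Of the remaining lists, splicing and hnRNP proteins had 1 of 69 (Hnrnpa2b1), DEAD and DEAH box helicases 1 of 53 (Ddx39b with 9.58), and the proteasome (50 genes) and cyclins and their kinases (41 genes) 0. Solute carriers had 3 of 371 (0.809%: Slc6a8, Slc7a1 with 4.95, Slc10a7 with 2.53). Zinc finger genes named Zfp had 3 of 394 (0.761%: Zfp706 with 10.5, Zfp57 with 3.71, Zfp62 with 2.52). Both were near the share of all genes. Most genes had no peak, so the list shares also depend on how many genes had one. Among protein-coding genes with any peak, 9.54% had a 5′UTR peak. This share was 11.8% for methylation enzymes, 12.5% for remodelers, 6.12% for solute carriers, 14.3% for Zfp genes and 4.76% for splicing proteins. It was 18.8% for pluripotency factors, 24.3% for ribosomal proteins, 26.3% for initiation factors, 54.5% for other TOP mRNAs and 66.7% for iron-responsive genes.

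**Figure D4:**
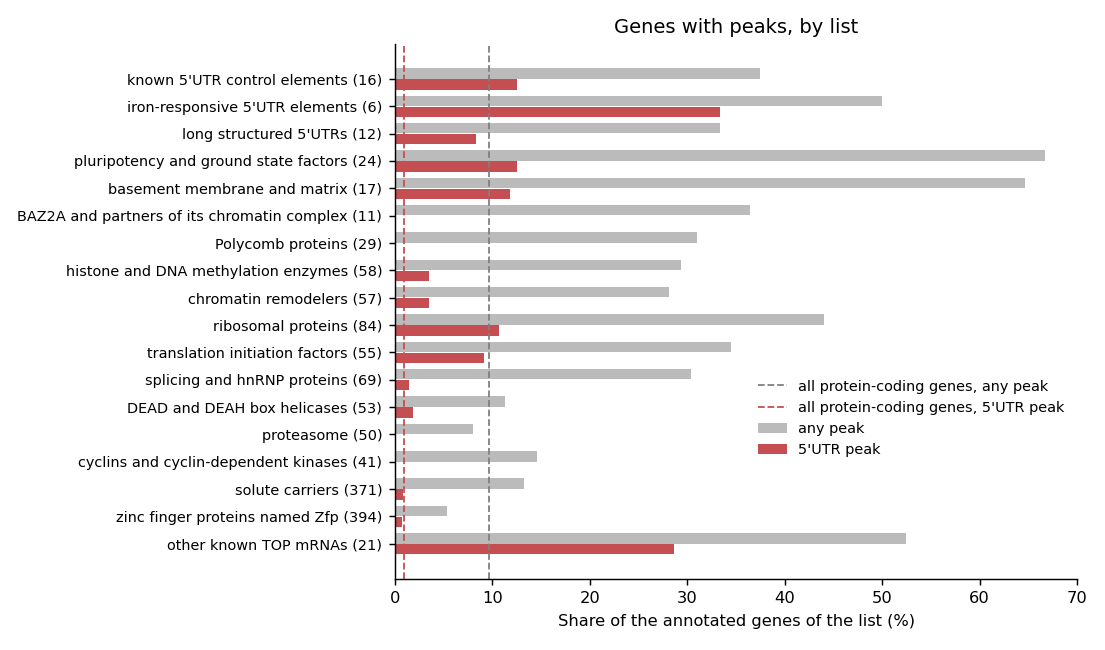
Percent of the annotated genes of each list (number in parentheses) with a peak of any class (grey bars) and with a 5′UTR peak (red bars); dashed lines mark the shares over all protein-coding genes, 9.69% and 0.925%. The list of other known TOP mRNAs was added after values were seen, and its 5′UTR share of 28.6% is second to that of the iron-responsive list, which has 6 genes.

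Peaks in 5′UTRs were richer in C and poorer in A than the rest of the same 5′UTRs. Over 17053 nt of peak within 5′UTRs, C made up 40.2%, G 29.7%, T 18.1% and A 12%. Over the 66891 nt of the same 5′UTRs outside the peaks, these shares were 31.0%, 31.4%, 20.0% and 17.5%. Taken transcript by transcript in 189 transcripts, the median difference in C was 7.74 percentage points (5.23-9.40), with C higher in the peak in 143 and lower in 46. For A it was -4.48 points (-6.08 to -3.08), lower in the peak in 141 transcripts. G was also lower, by a median difference of -3.39 points (-5.78 to -1.71), and T had a median difference of 0.

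The GC content was 4.37 points (2.85-5.37) higher in the peak, in 132 of 199 comparisons, so the difference in C exceeded that in G. CpG dinucleotides numbered 10.6 per 100 nt of peak and 7.96 per 100 nt of the rest. The difference was also present among bases of the last 100 nt before the start codon, with 40.9% C and 12% A inside peaks against 30.5% and 19.4% outside.

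Upstream ATG codons were scarcer in the peaks. The peaks held 38 (2.24 per kb) and the rest of the 5′UTRs 450 (6.76 per kb). In the 189 transcripts compared with themselves, 37 were found in the peaks (exact Poisson 95% interval 26.1-51, counting error only) where the rate of the rest of each transcript would give 72.8. A lower share of A alone makes ATG rarer, and its part in this count was not tested.

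Motifs of C and T were counted in 51-nt windows on the peak midpoints and in windows tiled over the same 5′UTRs. Tiles of these 5′UTRs were kept only where their center lay outside the 5′UTR peaks. CCTCCT was in 23 of 206 windows (11.2%, 7.56-16.2), in 4.40% of 1317 tiles of the same 5′UTRs and in 3.38% of 90726 tiles over all genes. With windows on the mode its share was lower, 7.77% against 4.26% of tiles. On the midpoints, CTCCTC was in 26 windows (12.6%, 8.76-17.9) and in 5.09% of the tiles, and CCCCTC in 19 (9.22%, 5.98-14) and 4.40%. TCCTCC differed less, with 17 windows (8.25%, 5.22-12.8) and 5.16% of the tiles. With each transcript given equal weight, the tile shares were 3.70% for CCTCCT, 4.80% for CTCCTC, 5.12% for CCCCTC and 5.52% for TCCTCC, the last inside the interval of its windows. These motifs overlap one another, were searched on the RNA strand only, and were named in earlier results of this list, so they are no separate evidence of a preference. Of the high-scored peaks with CCTCCT near the midpoint, 6 are shown with the motif in capitals.
Pabpc1: cactcgctctCCTCCTctcacgggaa
Pdgfa: tccgcgccacCCTCCTccgggccgcg
Fn1: tggccacttgCCTCCTggggagggcg
Xiap: ctcttccctcCCTCCTcctccctcct
Stt3b: tcgccgtcgcCCTCCTcctcctcctc
Jam2: ctctcagggaCCTCCTctgctccgcc
In Xiap and Stt3b the motif was part of a longer run of CCT repeats, and in Fn1 it stood alone.

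Other motifs differed less or were absent. GGCGGC was in 22 windows (10.7%, 7.16-15.6) and 8.05% of tiles, GGAGGA in 7 (3.40%) and 4.63%, and GAAGAA in 1 (0.485%) and 1.59%. AGATCG was in 0 of 206 windows, which allows a share of up to 1.83% (Wilson), and in 0.380% of tiles. These letters open the adapter part of the primers used for reverse transcription.

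The base at the mode was G in 82 of 214 peaks (38.3%, exact 95% interval 31.8-45.2), whereas G averaged 30.7% over the peaks. C was the base in 78 (36.4%, 30-43.3) and averaged 38%. U was the base in 32 (15%, 10.5-20.4), an interval that holds its mean of 18.5%. UV light at 254 nm crosslinks uridine most readily, but the sources do not state that the mode is the crosslinked base. A was the base in 22 (10.3%, 6.56-15.2) and averaged 12.9%. In CDS peaks the order was different, with C at 37.4% and G at 27.2% of 720 modes.

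**Figure D5:**
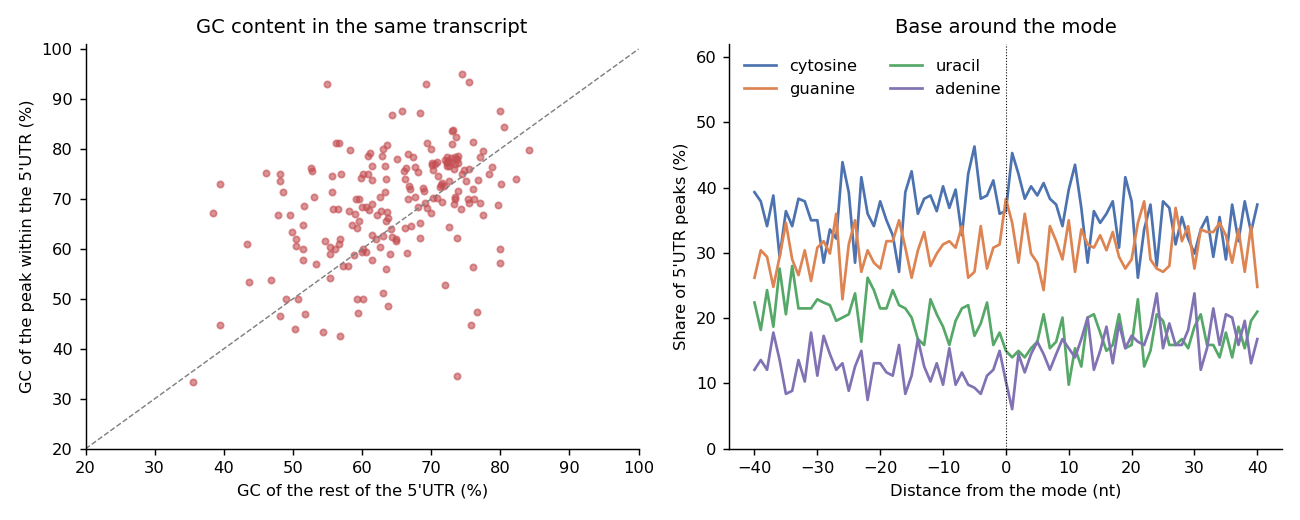
Left, GC content in percent of each 5′UTR peak against that of the rest of its 5′UTR, 1 point per peak, with a dashed line of equality; 132 of 199 points lie above it. Right, percent of the 214 peaks with each base at each distance in nt from the mode; guanine is at 38.3% at the mode itself, with cytosine at 36.4%.

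The predicted folding of the peaks was near that of the rest of their 5′UTRs. The minimum free energy of 100-nt windows on the midpoint was a median of -32.8 kcal/mol (-34.4 to -31.0) over 192 windows. It was -32.2 kcal/mol over 662 tiles of the same 5′UTRs with their center outside the peaks. The peak windows held 67.4% GC and the tiles 62.4%, so the energies were close while the GC content differed.

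Genes with a 5′UTR peak often had further peaks. Of the 203 host genes, 76 (37.4%, 31.1-44.3) had a peak of another class, 38 of them in the CDS, 34 in the 3′UTR and 24 in an intron. The same share was 30.6% (26.9-34.5) for genes with a CDS peak, 33.8% (29.5-38.4) for those with a 3′UTR peak and 11.5% (9.85-13.4) for those with an intronic peak. Within the 38 genes with both, the best 5′UTR score was higher than the best CDS score in 23, with a median log2 ratio of 0.48 (-0.18 to 0.91). Against the 3′UTR it was higher in 22 of 34 (0.34, -0.09 to 0.76), and against introns in 13 of 24 (0.06, -0.26 to 0.44). All 3 intervals included 0.

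More than 1 peak in the 5′UTR was found in 10 genes. BC005537 had 3, at scores of 11.6, 10.5 and 8.97, with midpoints 1543, 1328 and 1169 nt upstream of the start codon in a 5′UTR of 1724 nt. Slc6a8 had 29.9 and 8.26, Tubb5, a beta-tubulin, 12.5 and 9.49, Zbtb44 7.99 and 6.92, and Atp1b1, a sodium pump subunit, 6.98 and 4.19. B4galt6 had 47.3 and 11.1, and Smad7, an inhibitor of TGF-beta signaling, 4.82 and 2.90. The remaining pairs were in Tnrc6c (4.51 and 1.87), 2410002F23Rik (4.81 and 4.66) and Sipa1l2 (2.07 and 1.14). In Slc6a8, Zbtb44, Tubb5 and B4galt6 the paired peaks were less than 30 nt apart, and closest in Slc6a8.

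A length of 18 nt or less was found for 20 of the 214 peaks (9.35%), close to the 9.11% of all peaks in the list. These short peaks had a median score of 1.82 and a median GC content of 80.6%, against 69.4% for the longer peaks. The shortest was that of Car8, with 4 nt and a score of 0.98. The highest scores among them were 16.4 over 17 nt in Stim2, a calcium sensor of the endoplasmic reticulum, 14.6 over 16 nt in Spire1, an actin nucleator, and 12.1 over 15 nt in Eif5. RefSeq placed 16 of the 20 midpoints in a 5′UTR only. The genome at 2 of the 214 peaks (0.935%), in Prkacb (9.71) and Gm38394 (10.8), matched the barcode and the first adapter letters of the primer used for reverse transcription of the background libraries. The same match was found in 5.33% of intronic peaks, and its part in the results was not tested.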

How the data were processed

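iCLIP of BAZ2A in mouse ESCs gave 3 crosslinked libraries and 3 background libraries, grouped by their titles. Per the study's methods, the authors trimmed reads with Flexbar, mapped them to mm10 with STAR 2.6, deduplicated them with UMI-tools 0.5.1 and called peaks with omniCLIP at default parameters, with Ensembl genes. The deposited score is the value that omniCLIP gave each peak, on a scale that is not stated, and positions are given as in BED. Depth per library is not given in the list, so the precision that depth gives is unknown.

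Coordinates are of mm10 (GRCm38), 1-based. Each midpoint took its class in GENCODE M21 with CDS first, then 3′UTR, then 5′UTR, then exons of non-coding transcripts, then introns. Positions were taken along the spliced transcript that holds the midpoint, with APPRIS principal transcripts first. Medians carry exact order-statistic intervals, shares carry Wilson intervals unless named exact, and all are at 95%. Energies are from RNAfold 2.7.2, sequences were read with pysam 0.24.0, and other values come from scipy 1.17.1, numpy 2.4.6 and pandas 2.3.3 under Python 3.11.15. The position step was tested on simulated data, and recovered 500 of 500 positions.

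The peaks, gene lists and motifs were chosen with earlier results of these data known. The genes named are the 15 highest-scored peaks, genes with 2 or more peaks, the 5 highest over the start codon and over an exon end, the 5 nearest the transcript start, members of the lists, and the longest and shortest peak. Strap, Glud1, Atp5g3, Stt3b, Jam2, Stim2, Spire1, Rpsa, Rtn4, Mapk14, Prkacb and Gm38394 were named after their values were seen. No sequence is printed for peaks on chromosome 18. Alternatives changed the class rule, the transcripts, the peaks included and the windows. Expression data were not used here.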

Additional observations from a re-analysis of the deposited data

How the results depend on the processing

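Over 19 results and 14 alternative settings, 215 of 230 recomputed values moved by less than their spread or within 1.5 times the count, 15 moved more and 0 reversed. These labels score each value alone, not its comparison with the bases. The share within 100 nt of the start codon was above that of the bases in the main setting (50.5% against 37.5%). It was below that of the bases with peaks wholly inside 5′UTR exons. With peaks wholly inside 5′UTR exons only, 134 peaks stayed, which drops by rule all peaks over the start codon (0). The median score was then 4.81, the median length 69.0 nt, the relative position 0.55, the share within 100 nt of the start codon 29.9% (against 33.1% of the bases) and the share over an exon end 3.73%, with 22 listed genes against 36 and 5 ribosomal protein genes against 9. In the 50% of the list with the highest score, 142 peaks remained, with a median score of 7.48, a median length of 99.5 nt and 36.6% over the start codon. With the transcript of the shortest 5′UTR, the relative position was 0.59 and the share within 100 nt of the start codon 51.9% against 46.4% of the bases. In 50-nt windows the energy was -13.2 kcal/mol against -13.0 in tiles. The GC difference was positive in 12 of 12 settings. Both alternatives added after seeing the data, RefSeq 5′UTRs only and no second gene, gave 38 values, none of which moved. No paired analysis was possible because the list has no value per library. Depth limits are unknown for the same reason.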
